A study of Mus musculus with 4 samples.

Results

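The nuclear genes of oxidative phosphorylation were followed through the development of thymic invariant natural killer T (iNKT) cells. Members were taken by symbol: all rows of the gene list that start with Nduf, Uqcr, Cox4i, Cox5, Cox6, Cox7, Cox8 or Atp5, and Sdha, Sdhb, Sdhc, Sdhd and Cycs, without the pseudogenes marked -ps. This gave 94 of 31053 rows, of which 89 held at least 1 unique molecular identifier (UMI, 1 counted transcript molecule) and 5 held none. Beside them were set the 13 protein genes of the mitochondrial genome, whose symbols start with mt-. The rule reads symbols and no measured value, but it was set with earlier results of these data known.

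iNKT cells carry a nearly invariant T cell receptor for lipids on CD1d. Cells stained by PBS57-CD1d tetramer were sorted from the thymus as equal parts CD44low and CD44high, from 2 untreated C57BL/6 mice and 2 untreated Hivep3-/- mice backcrossed to C57BL/6, all 8 to 9 weeks old. Each of the 4 libraries came from 1 mouse. Hivep3 encodes a zinc finger protein, and the question is how oxidative phosphorylation transcripts move with iNKT stage and with the loss of this gene. Replicates are separate mice, and clusters hold the cells of all 4.

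Oxidative phosphorylation passes electrons along 4 complexes of the inner mitochondrial membrane to oxygen, and the proton gradient this builds drives ATP synthase. Complex I (NADH dehydrogenase, Nduf genes), complex III (cytochrome bc1, Uqcr genes), complex IV (cytochrome c oxidase, Cox genes) and ATP synthase (Atp5 genes) each join nuclear subunits to subunits made inside the organelle from mt- genes. Complex II (succinate dehydrogenase, Sdh genes) is nuclear only, and cytochrome c (Cycs) carries electrons from complex III to complex IV. Stage 0 iNKT cells leave positive selection, divide, and then take an iNKT1, iNKT2 or iNKT17 fate; dividing T cells are known for a high demand on mitochondria.

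Many nuclear genes of this system are read from short GC-rich promoters, and 3 motifs known from them were looked for on both strands, from 250 bases before to 50 bases after the start site. RefSeq promoters on GRCm38.p6, the same assembly as mm10, were found for 75 of the member symbols. The core of the NRF1 site (nuclear respiratory factor 1), GCATGCG, was in 13 of them (17.3%), against 3.64% of all 27025 promoters. An ETS family site, CCGGAAG, the kind that GABP binds, was in 17 (22.7%) against 9.12%, and the YY1 core, ATGGCGG, in 11 (14.7%) against 4.19%. Member promoters also held more G and C (median 58.3% against 52.7%). A match is a description of the letters and not a bound site. The YY1 core begins with ATG, and whether its matches are also starts of translation was not checked. These windows, in the direction of the gene with the motif in capitals, belong to members that the results below turn on; the NRF1 core is nearly its own reverse complement, so most of its matches appear on both strands shifted by 1 base.
Cycs, NRF1 core, chr6:50566613-50566639: atgctagctcGCATGCGcgcgcacaaa
Uqcr11, NRF1 core, chr10:80406809-80406835: tcgccttcacGCATGCGctatacgtct
Uqcr11, ETS site, chr10:80406871-80406897: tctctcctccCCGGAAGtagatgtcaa
Atp5g2, NRF1 core, chr15:102671071-102671097: ctccggccgcGCATGCGcagagccttc
Uqcrh, ETS site on the opposite strand, chr4:116075064-116075090: gtatgccgcaCTTCCGGccaggtcgcc
Ndufa5, YY1 core, chr6:24527530-24527556: ggacgctgtcATGGCGGgcttgctgaa
All 5 of these genes lie on the minus strand. The NRF1 core of Uqcr11 starts at base -4 and its ETS site at base -66 from the start site, and the NRF1 cores of Cycs and Atp5g2 at -60 and -40. Cycs, Ndufa5, Uqcrh, Atp5g2 and Uqcr11 were picked among members with a motif whose differences are given below, with these values known. Ndufaf2, Cox7a2l, Ndufc1, Cox7a2 and Atp5g1, with differences as large, held none of the 3 motifs in this stretch, and Atp5f1 and Uqcrq were not among the promoters used.

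The libraries held 31381738 to 48291764 UMIs and 3651 to 7231 cells after filtering, with medians of 4596 and 5268 UMIs per cell in C57BL/6 against 6833 and 6491 in Hivep3-/-. Clusters were named "-like" from marker lists, and the members, the mt- genes and Hivep3 were kept out of the genes used for clustering. Stage 0 markers summed to 56.4 to 76.6 UMIs per 10,000 in stage 0-like cells and to 21.0 or less in the 4 other classes, iNKT17 markers to 22.4 to 27.5 in iNKT17-like cells and to 0.751 or less elsewhere, iNKT1 markers to 67.2 to 84.3 in iNKT1-like cells and to 22.2 or less elsewhere. Other classes were less apart: cycling markers summed to 47.8 to 122 in cycling-like, 33.4 to 43.6 in stage 0-like and 9.70 or less in the remaining cells, and iNKT2 markers to 16.9 to 23.9 in iNKT2-like, 14.4 to 17.4 in iNKT17-like and 9.23 to 17.0 in cycling-like cells. The largest cycling-like cluster, with 1643 cells, stood highest for the iNKT2 list when each marker was standardised over clusters. Markers of double positive thymocytes, B cells and myeloid cells stayed at or under 3.19, 1.69 and 3.36 per 10,000 in every class, and those of erythroid cells at or under 0.01. From 111 to 165 barcodes of a library were also in another library. Xist was counted 14609 times in C57BL/6 replicate 1 and 25 times or fewer in each of the 3 other libraries, so that library stands apart and results that rest on it are given without it. Hivep3 itself held 0.385 and 0.364 UMIs per 10,000 in C57BL/6 and 1.01 and 0.680 in Hivep3-/-; counts from the 5' end do not check the deletion.

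In all, 3432178 UMIs fell on members. Over all cells of a library they took 269, 260.9, 227 and 249.5 of every 10,000 UMIs in C57BL/6 replicates 1 and 2 and Hivep3-/- replicates 1 and 2, and the mt- genes took 264, 316, 211 and 272. Summed over genes and averaged over libraries, ATP synthase gave 80.6 per 10,000 (32.0% of member UMIs), the accessory subunits of complex I 66.7 (26.5%), complex IV 62.8 (25.0%) and complex III 23.6 (9.42%). The 7 nuclear core subunits of complex I gave 7.50, complex II 4.62, Cycs alone 3.21 and the 8 complex I assembly factors (Ndufaf genes) 2.58. Sums of complexes are read as shares of transcripts counted at the 5' end, not as protein.

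Small subunits led most groups. Atp5e, the epsilon subunit of ATP synthase, was the highest member, at 12.2 and 12.6 UMIs per 10,000 in C57BL/6 and 11.01 and 11.9 in Hivep3-/-. Atp5g3 and Atp5g2, which like Atp5g1 encode the same c subunit of the rotor with different targeting sequences, stood at 9.77, 9.71, 6.94 and 8.30 and at 7.26, 7.40, 5.97 and 7.10 in the same order of libraries. In complex IV, Cox8a stood at 11.5, 11.02, 9.67 and 11.1, Cox4i1 at 9.05, 7.71, 6.68 and 7.37 and Cox7c at 7.22, 7.72, 7.11 and 7.52. Cox4i1 was thus lowest in both Hivep3-/- libraries, while the libraries of the genotypes overlapped for Cox8a and Cox7c. Complex III was led by Uqcrh, the hinge protein, at 6.52, 6.29, 6.27 and 6.32, then by Uqcrq at 4.24, 3.60, 2.77 and 3.22 and by Uqcr10 at 3.79, 3.38, 2.67 and 3.14. Ndufa4, listed here under complex I by its symbol although its protein is now placed in complex IV, stood at 5.89 to 6.39, ahead of Ndufa13 (4.44 to 4.90) and Ndufa3 (3.95 to 4.44). Among core subunits of complex I, Ndufv2 (1.30 to 1.75), Ndufs7 (1.36 to 1.42) and Ndufs3 (1.21 to 1.35) came first. Sdhb, the iron-sulfur subunit of complex II, stood at 1.76 to 2.32, above Sdha (0.929 to 1.04) and Sdhd (0.850 to 1.02). The 3 highest assembly factors were Ndufaf8 (0.619 to 0.710), Ndufaf4 (0.487 to 0.540) and Ndufaf3 (0.395 to 0.426).

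Paralogs known from other tissues were close to absent. Cox7b2, Cox8b and Cox8c, of testis and muscle, and Ndufa4l2, known from hypoxic cells, had no UMI in any library, nor did a second row named Atp5o (chr16:91684398-91926982), which overlaps the counted Atp5o (chr16:91925214-91931687) so that reads of the shared stretch cannot be assigned with certainty. Cox4i2 had 7 UMIs in all and Cox6a2 had 21. Cox6b2, a testis form, had 81, 30, 23 and 48 UMIs, and Cox7a1, a heart and muscle form, had 75, 28, 27 and 37. With these few counts no order of libraries was read.

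By stage, cycling-like cells gave the highest member sum in each library and iNKT1-like cells the lowest. The sum was 333 and 331 per 10,000 in cycling-like cells of C57BL/6 and 293 and 307 in Hivep3-/-, against 286, 301, 279.7 and 291 in stage 0-like cells. It was 248, 252, 219 and 232 in iNKT2-like cells and 237, 260.8, 226 and 245 in iNKT17-like cells. In iNKT1-like cells it was 208, 223, 212 and 224. iNKT2-like and iNKT17-like cells did not keep 1 order over the libraries, while every other neighbouring pair did. Because cycling-like cells were also the deepest, with medians of 11952 to 15501 UMIs per cell against 3515 to 6449 in iNKT1-like cells, members came to 362 to 504 UMIs per cell in the former and 78.3 to 142 in the latter.

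**Figure D1:**
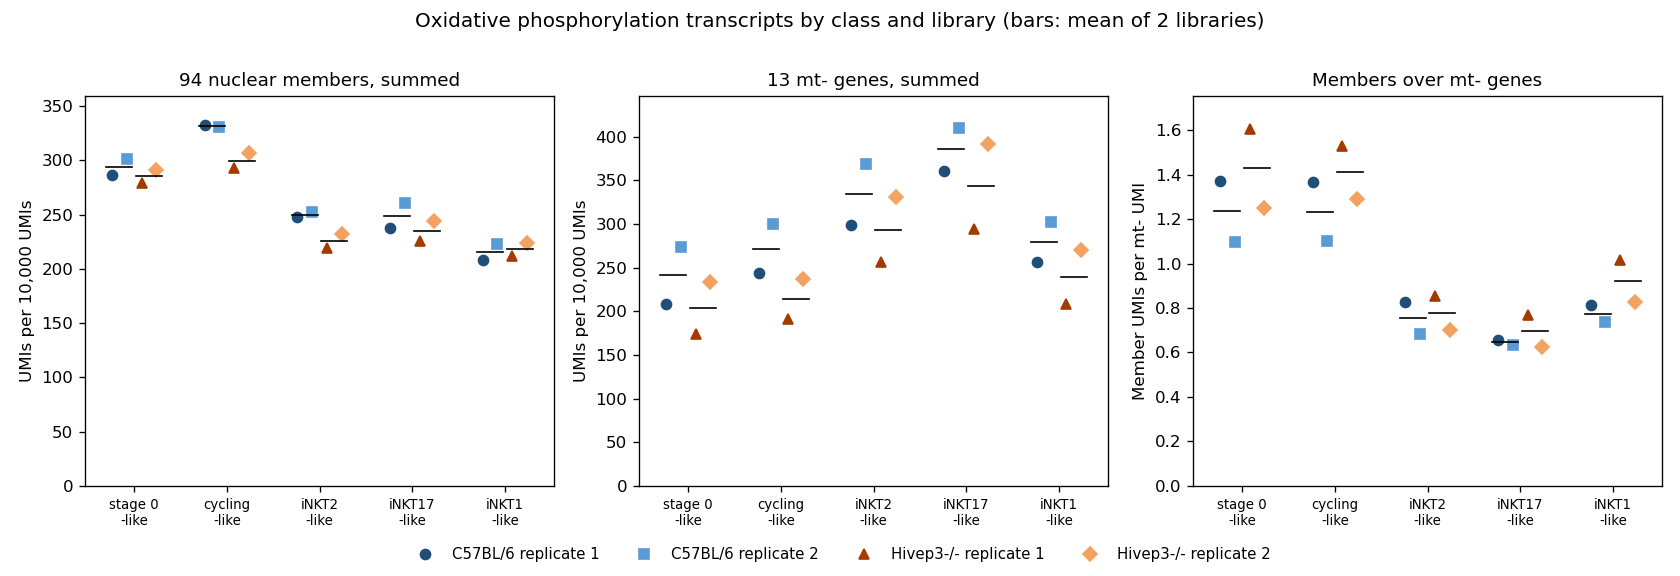
Summed UMIs per 10,000 of the 94 nuclear members (left) and the 13 mt- genes (middle), and member UMIs per mt- UMI (right), for the 5 classes; each point is 1 library and each bar the mean of 2 libraries. The nuclear sum peaks in cycling-like cells and falls to iNKT1-like cells, the mt- sum peaks in iNKT17-like cells, and the ratio drops from over 1.0 in stage 0-like and cycling-like cells to 0.62 to 0.86 in iNKT2-like and iNKT17-like cells.

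The mitochondrial genome followed another course. mt- genes took 208, 274, 174 and 233 per 10,000 in stage 0-like cells, 243, 300.5, 191 and 237 in cycling-like cells, 299, 369, 256 and 331 in iNKT2-like cells, 361, 410.1, 295 and 391 in iNKT17-like cells and 256, 302, 209 and 270.4 in iNKT1-like cells. C57BL/6 replicate 2 was the highest and Hivep3-/- replicate 1 the lowest in all 5 classes. Per mt- UMI, 1.37, 1.10, 1.61 and 1.25 member UMIs were counted in stage 0-like cells and 1.37, 1.10, 1.53 and 1.29 in cycling-like cells. The ratio was 0.829, 0.683, 0.856 and 0.702 in iNKT2-like, 0.658, 0.636, 0.767 and 0.625 in iNKT17-like and 0.813, 0.737, 1.02 and 0.829 in iNKT1-like cells. The limit of under 6% mitochondrial UMIs per cell, taken from the study, cuts the upper end of the mt- values.

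For the stage tests, sums per library and class were compared within libraries by edgeR's quasi-likelihood test, with TMM scaling and Benjamini-Hochberg adjustment over all genes. TMM matters here: against unscaled library totals it moved the log2 difference of the median gene by 0.252 between stage 0-like and cycling-like cells, by 0.135 between cycling-like and iNKT2-like cells and by 0.114 between iNKT2-like and iNKT17-like cells. Log2 differences below are on the scaled values, levels per 10,000 are not scaled, and the unscaled split of calls is given beside the scaled one.

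From stage 0-like to cycling-like cells the member sum rose by 26.3 per 10,000 (SD 15.5 over 4 libraries), in 4 of 4 libraries. The mt- sum rose by 20.8 (SD 13.2), also in 4 of 4. Each gave p = 0.125 in the exact permutation test over pairs, the smallest that 4 libraries allow. The member sum rose more in both C57BL/6 libraries. Its mean of 2 libraries went from 294 to 332 in C57BL/6 and from 285 to 299.7 in Hivep3-/-. A genotype difference of this step was not tested. Of 87 members tested, 64 were called higher and 2 lower, where 28.9% of all genes were called higher, 18.1% lower and 47% in either direction. The calls were spread over the complexes, with 14 of 16 ATP synthase genes higher and 1 lower, 25 of 30 complex I accessory genes, 10 of 13 complex IV genes and 6 of 8 complex III genes higher. Without scaling, 30 members were called higher and 7 lower, and the summed level per 10,000 of complex III (-0.352, higher in 1 of 4 libraries) and of the complex I core (-0.207, higher in 1 of 4) did not rise while ATP synthase (+11.98) and complex IV (+9.35) did so in 4 of 4. Atp5g2 went from 5.23, 5.41, 5.07 and 6.16 per 10,000 to 8.27, 8.83, 6.94 and 8.41 (log2 difference 0.81, SE 0.0618, adjusted p = 2.15e-09). Every library of cycling-like cells was above every library of stage 0-like cells for this gene. Ndufc1, a small accessory subunit of complex I, rose by 0.73 (SE 0.0883, adjusted p = 1.18e-06) and Atp5f1, the b subunit of the ATP synthase stalk, by 0.67 (SE 0.0768, adjusted p = 5.24e-07). Ndufaf4 fell from 0.804 to 0.957 per 10,000 down to 0.527 to 0.628 (log2 difference -0.29, SE 0.0983, adjusted p = 0.0216), a call lost without Hivep3-/- replicate 2 (-0.21, adjusted p = 0.273) and under 3 other alternatives, with adjusted p up to 0.351; the other lower member was Atp5s, named after its value was seen.

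From cycling-like to iNKT2-like cells the nuclear and mitochondrial transcripts parted. The member sum fell by 78.0 per 10,000 (SD 5.20, lower in 4 of 4 libraries) while the mt- sum rose by 70.6 (SD 16.03, 4 of 4), so that members per mt- UMI fell to 0.582 of the cycling-like value (exact permutation p = 0.125 for each). Of 87 members 58 were called lower and 5 higher (all genes: 23.7% lower, 24% higher, 47.6% either way), while all 13 mt- genes were called higher. Without scaling, 4 members were higher and 76 lower. Cytosolic ribosomal protein transcripts rose by 929 per 10,000 in the same step (higher in 4 of 4 libraries); with those genes left out of the denominator the member sum differed by -13.9% in place of -24.7%. Cycs fell from 5.27, 5.70, 4.83 and 5.07 per 10,000 to 2.57, 3.12, 2.36 and 2.49 (log2 difference -0.85, SE 0.0716, adjusted p = 5.88e-09). No iNKT2-like library reached the lowest cycling-like library. Ndufaf2, an assembly factor of complex I, went from 0.409 to 0.493 down to 0.149 to 0.187 (-1.24, SE 0.146, adjusted p = 6.78e-07), and Ndufa5 from 1.95 to 2.02 down to 1.03 to 1.23 (-0.66, SE 0.0685, adjusted p = 1.15e-07). Opposite to these, Cox7a2l, listed under complex IV by its symbol, rose from 2.08 to 2.20 up to 3.42 to 3.56 (0.84, SE 0.0680, adjusted p = 3.61e-09). Uqcrh rose from 4.99 to 5.57 up to 6.33 to 7.21 (0.50, SE 0.0525, adjusted p = 1.43e-07), and Ndufaf3 had a log2 difference of 0.44 (SE 0.0978, adjusted p = 0.000881). Atp5s and Ndufa6 were the other 2 higher members.

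**Figure D2:**
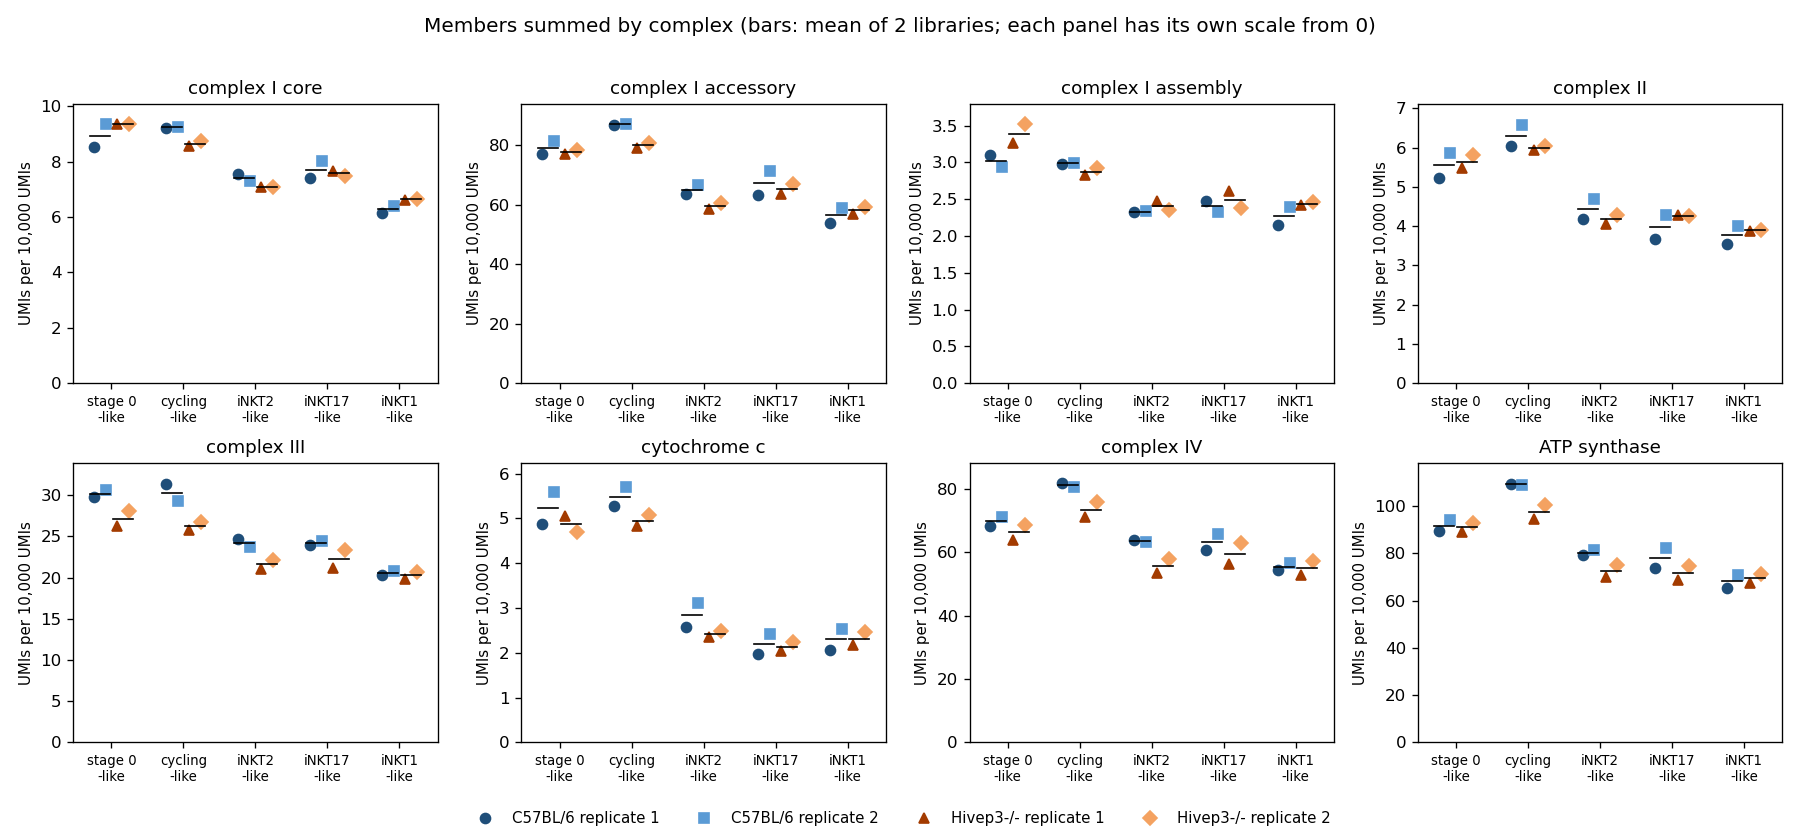
Members summed by complex in UMIs per 10,000 for the 5 classes; each point is 1 library, each bar the mean of 2 libraries, and each panel has its own scale from 0. Cycs falls furthest from cycling-like to iNKT2-like cells, to 0.504 of its level, while complex III and the complex I core keep 0.810 and 0.811 of theirs.

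In the member sum, mature fates differed less from each other than iNKT2-like from cycling-like cells. Between iNKT2-like and iNKT17-like cells the member sum differed by 4.37 per 10,000 (SD 10.2, higher in 3 of 4 libraries, exact permutation p = 0.5), and the mt- sum was higher in iNKT17-like cells by 50.5 (SD 12.4, 4 of 4 libraries, p = 0.125 by the same exact test). Of the members 2 were called higher and 16 lower (all genes: 11.4% higher, 11.1% lower, 22.5% either way), but without scaling 11 were higher and 8 lower, so no direction of the group was read. Cox7c was higher in iNKT17-like cells, at 9.10, 10.2, 9.80 and 10.4 against 7.28, 7.85, 7.86 and 7.94 (0.24, SE 0.0543, adjusted p = 0.00275), and so was Ndufs5 (0.52, SE 0.0964, adjusted p = 0.000391). Each iNKT17-like library lay above each iNKT2-like library for Cox7c. Ndufaf4 (-0.60, SE 0.123, adjusted p = 0.00106), Uqcrc2, a core subunit of complex III (-0.45, SE 0.0833, adjusted p = 0.000457), and Sdhb (-0.41, SE 0.0708, adjusted p = 0.000188) were lower.

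iNKT1-like cells were below iNKT2-like cells in both genomes. The member sum was lower by 21.1 per 10,000 (SD 16.3, lower in 4 of 4 libraries) and the mt- sum by 54.5 (SD 11.1, 4 of 4), with exact permutation p = 0.125 for each. The member step was larger in both C57BL/6 libraries. From iNKT2-like to iNKT1-like cells the mean of 2 libraries went from 250 to 215 in C57BL/6 and from 226 to 218 in Hivep3-/-. A genotype difference of this step was not tested. Here 43 of 87 members were called lower and 6 higher (all genes: 22.6% lower, 23% higher, 45.6% either way), and 9 of 13 mt- genes lower and none higher. Without scaling, 44 members were lower and 7 higher. Without C57BL/6 replicate 1, and likewise without C57BL/6 replicate 2, 30 members were called in place of 49. Ndufc2 fell from 1.45 to 1.93 per 10,000 down to 1.17 to 1.37 (-0.47, SE 0.0700, adjusted p = 1.48e-05), and with it Sdhb (-0.43, SE 0.0643, adjusted p = 1.77e-05) and Ndufb5 (-0.43, SE 0.0664, adjusted p = 2.63e-05). The 6 higher members were Ndufaf8 (0.33, adjusted p = 0.00237), Ndufs7, a core subunit with an iron-sulfur cluster (0.29, adjusted p = 0.00101), Atp5h (0.26, adjusted p = 0.00147), Ndufa2, Sdha and Cox8a. Cox6b2 and Cox7a1 were called lower too, but at under 0.1 UMIs per 10,000.

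Within iNKT1-like cells, the late cluster was led by Ccl5, Gzma and Ly6c2. Its member sum was 6.50 per 10,000 below that of the other clusters pooled (SD 3.08, lower in 4 of 4 libraries, exact permutation p = 0.125). It was not below each of them. At 206, 216, 208 and 219 it was above the largest cluster (202, 213, 205 and 214) and the interferon response cluster (193, 211, 200 and 214). The cluster led by Gzmb (229, 247, 231 and 248) and a small one led by Ccl1 stood above it. Of 85 members tested 6 were called higher and 5 lower (all genes: 11.2% higher, 10.1% lower, 21.4% either way), and without scaling 3 higher and 17 lower. Ndufa6 (0.20, adjusted p = 0.000838), Atp5h (0.18, adjusted p = 0.000872) and Atp5l (0.16, adjusted p = 0.00212) were higher, and Atp5g3 (-0.20, adjusted p = 0.000216), Cycs (-0.18, adjusted p = 0.00608) and Ndufc2 (-0.18, adjusted p = 0.0173) lower, by edgeR's test. None of these differences passed 0.25 on the log2 scale. Cycs lost its call under 4 of 14 alternatives (adjusted p up to 0.479) and Ndufc2 under 5 of 14 (adjusted p up to 0.556), among them without Hivep3-/- replicate 1 (-0.16) and without Hivep3-/- replicate 2 (-0.11).

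**Figure D3:**
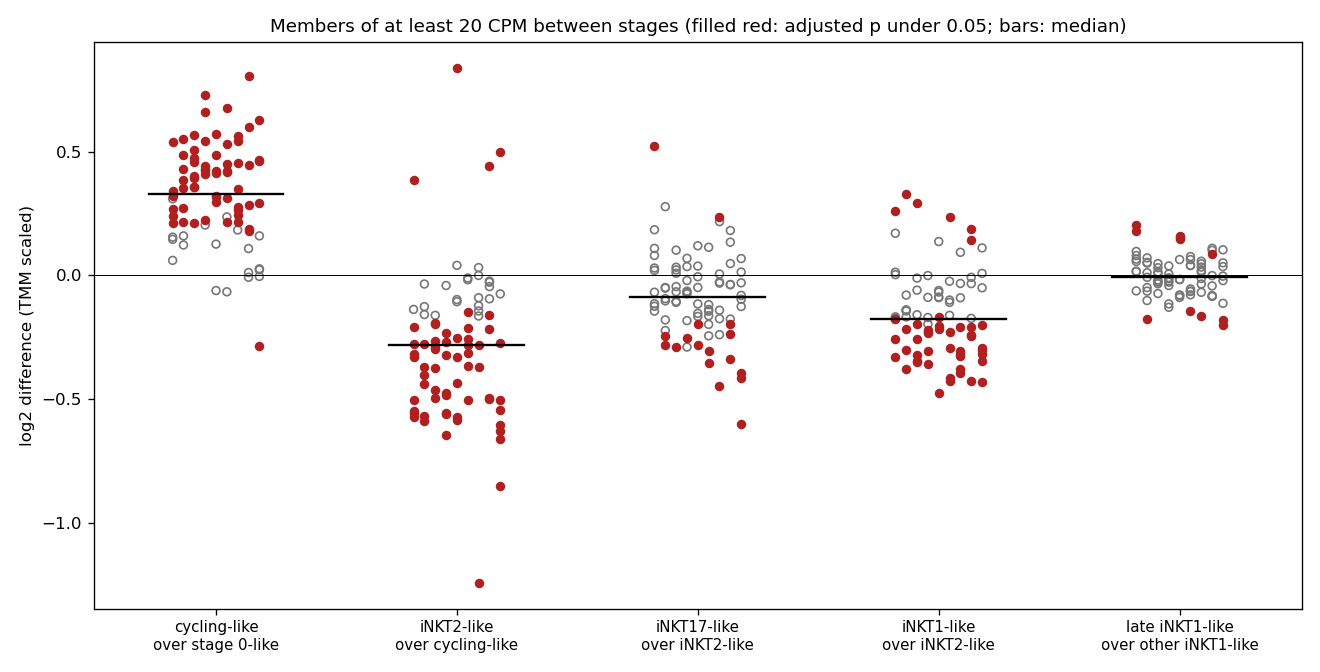
Log2 difference (TMM scaled) of each member with at least 20 CPM in 5 comparisons of neighbouring stages; filled red points passed adjusted p under 0.05, open points did not, and bars are medians. Most members rise into cycling-like cells and fall from there to iNKT2-like and iNKT1-like cells, with Cox7a2l highest and Ndufaf2 lowest in the step to iNKT2-like cells.

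Other mitochondrial genes were read from lists of whole families. From stage 0-like to cycling-like cells 40 of 78 mitochondrial ribosomal protein genes were called higher and 5 lower, 11 and 4 of 24 import genes (Timm and Tomm), 7 and 1 of 16 genes of the TCA cycle and pyruvate dehydrogenase, 7 and 2 of 25 further assembly factors and 4 and 0 of 12 regulators of mitochondrial biogenesis. Glycolysis gave 11 higher and 4 lower of 19, and the cytosolic ribosomal proteins 86 and 2 of 92. With 28.9% of all genes higher and 18.1% lower in this step, the counts of the assembly factors and of the biogenesis regulators lie near the background. In the step to iNKT2-like cells the mitochondrial ribosomal genes gave 1 higher and 46 lower and the import genes 0 and 11, near the members in direction, while 76 of 92 cytosolic ribosomal protein genes were higher and 5 lower.

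Between genotypes, no member was called in any class or over all cells by edgeR's quasi-likelihood test, where the share of all genes called was 0.253% for stage 0-like, 2.19% for cycling-like, 0.275% for iNKT2-like, 0.0915% for iNKT17-like and 0.878% for iNKT1-like cells, and 0.765% over all cells. At an unadjusted p under 0.05, 40 of 87 members were lower in Hivep3-/- among cycling-like cells, 16 of 85 among iNKT2-like, 4 of 85 among stage 0-like, 1 of 84 among iNKT17-like and 0 of 85 among iNKT1-like cells, 15 of 87 over all cells, and none was higher in any of them. At that same threshold the share of all genes that were lower was 8.4% for cycling-like, 4.67% for iNKT2-like, 4.18% for stage 0-like, 2.42% for iNKT17-like and 4.16% for iNKT1-like cells, and 5.7% over all cells. DESeq2 called 1 member in stage 0-like cells and 0 in the other classes and over all cells. The share of all genes called by DESeq2 is not given, so that count is not read as a result about the members. The median log2 difference of the members was -0.29 in cycling-like, -0.22 in iNKT2-like and -0.05 in iNKT1-like cells, beside 0.03, 0.02 and 0.00 for all genes; on unscaled totals these medians were -0.14, -0.14 and 0.02 beside 0.18, 0.11 and 0.08.

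Sums were compared with no scaling factor. In cycling-like cells the member sum was 332 ± 1.73 per 10,000 in C57BL/6 and 299.7 ± 9.88 in Hivep3-/- (mean ± SD, n = 2 libraries each), and in iNKT2-like cells 250.1 ± 3.01 against 226 ± 9.00; the genotypes did not overlap. Both gave p = 0.333 in the exact permutation test, the smallest that 2 libraries against 2 allow. Stage 0-like (294 ± 10.3 against 285 ± 8.10), iNKT17-like (249 ± 16.5 against 235 ± 12.99) and iNKT1-like cells (215 ± 10.3 against 218 ± 8.35) overlapped (exact permutation p = 0.667 each). Over all cells the sums were 265 ± 5.57 and 239 ± 15.6 with no overlap, but the mix of classes, which the sort into equal CD44low and CD44high parts also sets, was not the same: cycling-like cells made up 19.1% and 12.4% of C57BL/6 libraries and 4.00% and 7.13% of Hivep3-/- libraries, and clusters with no iNKT class 6.73% and 1.59% against 8.61% and 13.1%. With the 5 classes at equal weight the library values were 263, 273, 246 and 259.7.

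In cycling-like cells the members of smallest p were Cox7a2, a complex IV subunit (chr9:79755361-79759878), Atp5g1 (chr11:96068852-96075670) and Uqcr11 of complex III (chr10:80402997-80406830). Cox7a2 stood at 6.62 and 6.92 per 10,000 in C57BL/6 and at 4.82 and 5.56 in Hivep3-/- (-0.53, SE 0.133, adjusted p = 0.103). Atp5g1 stood at 4.13 and 4.19 against 3.11 and 3.43 (-0.50, SE 0.126, adjusted p = 0.106). Uqcr11 stood at 3.67 and 3.25 against 2.76 and 2.78 (-0.47, SE 0.125, adjusted p = 0.117). None of the 3 passed the threshold. For all 3 both Hivep3-/- libraries lay below both C57BL/6 libraries. Choice by smallest p in this class makes that order likely, so it adds no support. With each library left out in turn, the differences ranged from -0.70 to -0.40 for Cox7a2, from -0.63 to -0.40 for Atp5g1 and from -0.55 to -0.39 for Uqcr11. With no filter on low counts, 8 members were called lower in this class. The share of all genes called in that fit is not given, so that count is not read as a result about the members.

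In stage 0-like cells the member of smallest p was Uqcrq, a small subunit of complex III (chr11:53427922-53430831). It stood at 6.83 and 7.82 per 10,000 in C57BL/6 and at 4.19 and 4.55 in Hivep3-/- (-0.87, SE 0.162, adjusted p = 0.0633, 0.000168 to 0.175 over the alternatives). The genotypes did not overlap for Uqcrq, which its choice by smallest p makes likely. It passed the threshold under DESeq2 and under 5 more alternatives that kept all 4 libraries. Ndufa10 (-0.47) and Cox4i1 (-0.40) had the next smallest p, with adjusted p of 0.464 and 0.468 by edgeR. Atp5s (-0.85, adjusted p = 0.706 by edgeR) and Ndufaf6 (-0.53, adjusted p = 0.732), named after their values were seen, had differences as large at 11.1 and 20.3 CPM, far below the 592 CPM of Uqcrq. In iNKT2-like cells the smallest p belonged to Cox7a2 (-0.43), Uqcrq (-0.35) and Ndufb5 (-0.36), with adjusted p of 0.351 to 0.472 by edgeR. In iNKT17-like cells Atp5l (-0.37), Cox7a2 (-0.37) and Uqcr10 (-0.35) came first, and in iNKT1-like cells Atp5k (0.28), Uqcrfs1 (-0.22) and Ndufaf2 (0.29), all with adjusted p of 0.7 or more in that test. Over all cells Cox7a2 (-0.47), Uqcrq (-0.48) and Atp5g3 (-0.45) came first, at adjusted p of 0.2396 to 0.2799 by edgeR.

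Whether the genotype difference itself changed with stage was tested as an interaction of genotype with class, in 1 fit of the 5 classes with library as a block. Against iNKT1-like cells, the difference in cycling-like cells was more negative for 32 of 87 members and more positive for none, where 5.42% of all genes were called lower, 4.33% higher and 9.74% in either direction. The median over members was -0.30, beside 0.00 for all genes. The calls held 9 of 16 ATP synthase genes, 13 of 30 complex I accessory genes, 6 of 13 complex IV genes, 3 of 8 complex III genes and 1 of 8 assembly factors, and none of the 7 complex I core, 4 complex II and 1 cytochrome c genes. Atp5g1 (-0.64, SE 0.105, adjusted p = 0.000355) was at 1.83, 2.16, 2.10 and 2.39 per 10,000 in iNKT1-like cells, where the genotypes overlapped. Uqcr11 (-0.60, SE 0.107, adjusted p = 0.000800) was at 1.57, 1.73, 1.82 and 1.86 there, higher in both Hivep3-/- libraries, and it lost the call without C57BL/6 replicate 1 (-0.44, adjusted p = 0.0889); Cox7a2 (-0.48, SE 0.0891, adjusted p = 0.00113) was at 3.04, 3.27, 3.02 and 3.22.

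This count depended on the libraries and on the scaling. It was 8 on unscaled totals, where the median of all genes was 0.11, and 2 without C57BL/6 replicate 1, 15 without C57BL/6 replicate 2, 18 without Hivep3-/- replicate 1 and 12 without Hivep3-/- replicate 2, with no member called higher in any of these. The share of all genes called lower fell too, to 2.71% on unscaled totals and to 1.32%, 2.71%, 4.63% and 3.38% without those libraries in turn. In sums, cycling-like cells exceeded iNKT1-like cells of the same library by 125 and 108 per 10,000 in C57BL/6 and by 80.5 and 82.6 in Hivep3-/-, with no overlap (exact permutation p = 0.333). For mt- genes the gap was -12.5 and -1.44 against -17.3 and -33.0.

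**Figure D4:**
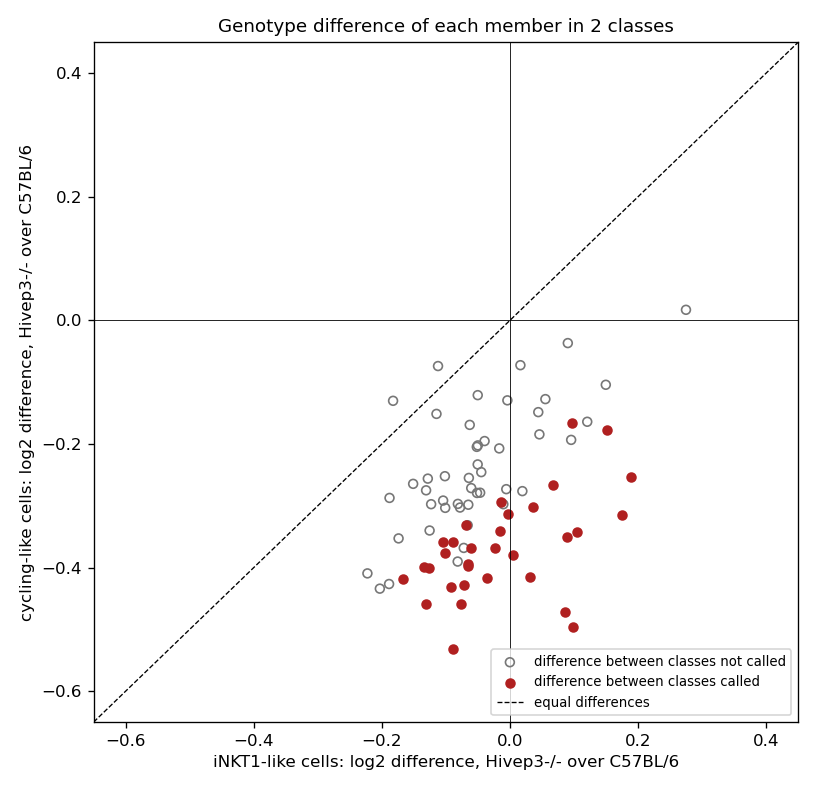
Log2 difference between genotypes (Hivep3-/- over C57BL/6, TMM scaled) of each member with at least 20 CPM in both classes, in iNKT1-like cells (horizontal) and cycling-like cells (vertical); filled red points were called in the interaction test, open points were not, and the dashed line marks equal differences. All but 1 point lie below 0 on the vertical axis, with Cox7a2, Atp5g1 and Uqcr11 lowest.

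Several measures moved with the lower member sum of cycling-like cells in Hivep3-/-. Per 10,000 UMIs, cycling markers summed to 47.8 and 60.1 in C57BL/6 and to 79.2 and 122 in Hivep3-/-, stage 0 markers to 9.99 and 8.53 against 21.0 and 18.2, iNKT1 markers to 4.94 and 5.31 against 22.2 and 13.6, late iNKT1 markers to 1.13 and 1.84 against 21.4 and 6.20, and iNKT2 markers to 17.0 and 16.5 against 10.1 and 9.23. The part of these markers in the result was not tested. The larger cluster of the class, led by Ccnb2 and Cenpa, held 1064 of 1380 and 341 of 452 cells in C57BL/6 but 100 of 184 and 138 of 297 in Hivep3-/-. In this cluster alone the member sum was 336 and 332 against 302 and 308, and 22 of 86 members were called lower against iNKT1-like cells, beside 3.51% of all genes in that fit. In the second cluster, led by Hist1h2ap and Pclaf, the sums were 327 and 331 against 293 and 310.2, with 17 of 86 called lower beside 4.54% of all genes. The third and smallest cluster, led by Mki67, held 22 and 13 cells in C57BL/6 and 37 and 21 in Hivep3-/-, and its sums were the lowest of the class, at 281 and 275 against 262 and 269; it was not fitted alone.

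Cytosolic ribosomal protein genes moved with the members: 65 of 93 were called lower and none higher in the same interaction test, and their sum in cycling-like cells was 2764 and 2733 per 10,000 against 2354 and 2451. So did 17 of 78 mitochondrial ribosomal protein genes, 8 of 24 import genes, 6 of 19 glycolysis genes and 3 of 16 TCA cycle genes, with none higher. Of all genes, 5.42% were called lower in this test. Further assembly factors (1 of 25 lower, none higher) and biogenesis regulators (0 of 12) did not exceed that share. Depth per cell was compared in steps. In cycling-like cells of 8000 to 12000 UMIs the member sum was 333 and 330.5 in C57BL/6 and 295 and 304 in Hivep3-/-, and above 12000 UMIs it was 331.5 and 329.9 against 290.5 and 307. In cells of 3000 to 8000 UMIs the genotype difference of the class was -12.5%, beside -9.68% over the whole class. That range held only 206 and 21 cycling-like cells in C57BL/6 and 18 and 19 in Hivep3-/-. The part of depth in the result was not tested. In iNKT1-like cells of 5000 to 8000 UMIs the values were 214 and 221 against 206 and 219. Above 12000 UMIs only C57BL/6 replicate 2 held 20 or more iNKT1-like cells among the C57BL/6 libraries, 22 in all, and its value of 287.5 was above the 239 and 256 of Hivep3-/-.

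**Figure D5:**
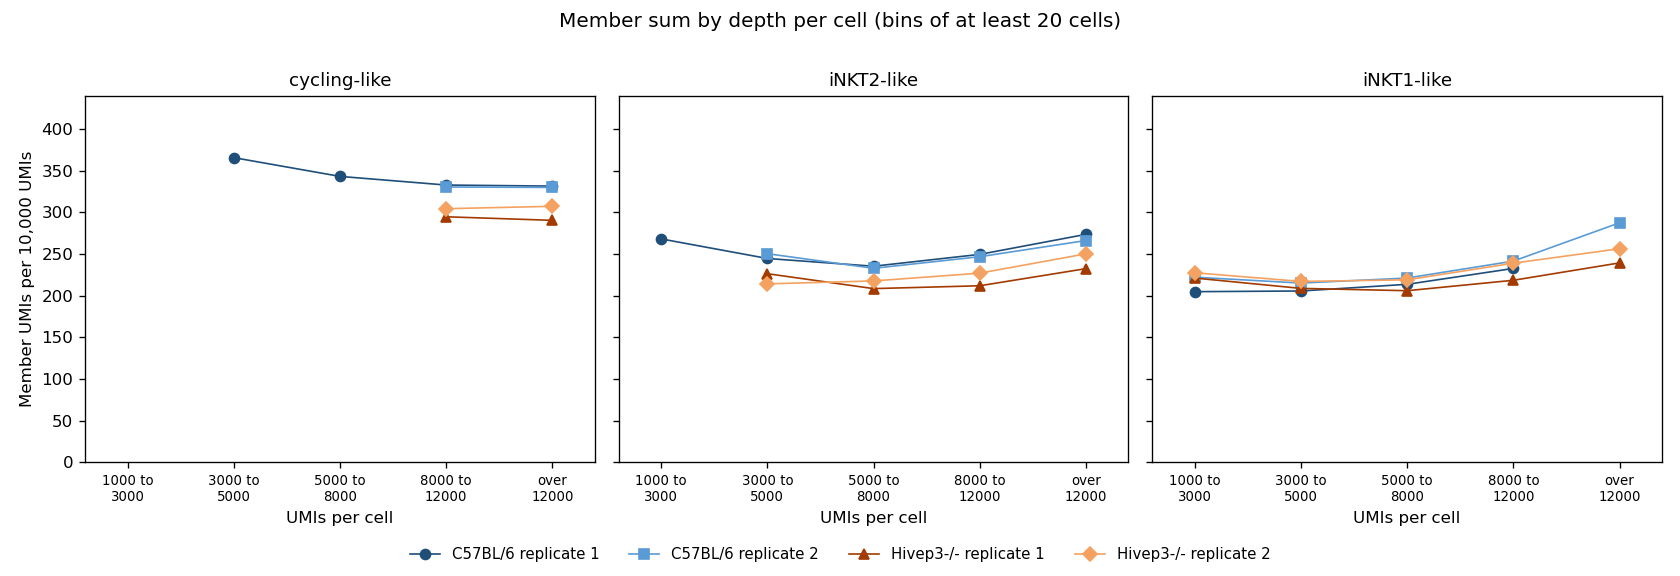
Member sum in UMIs per 10,000 (vertical) by the number of UMIs per cell (horizontal, bins of at least 20 cells) for cycling-like, iNKT2-like and iNKT1-like cells; each line is 1 library. In cycling-like cells the C57BL/6 lines lie above the Hivep3-/- lines in both bins they share, and in iNKT1-like cells the lines of the genotypes cross.

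Stage 0-like cells differed from iNKT1-like cells in the genotype difference of 2 of 87 members, both lower. Of all genes, 1.27% were called lower, 1.23% higher and 2.5% either way. The count of members lies near that share and is not read as a result about the group. Uqcrq had an interaction of -0.79 (SE 0.128, adjusted p = 0.000725), with iNKT1-like levels of 2.40, 2.57, 2.35 and 2.61 per 10,000 that overlapped between genotypes. Ndufa4 had -0.42 (SE 0.0945, adjusted p = 0.0156), at 9.17 and 9.24 in C57BL/6 and 7.87 and 7.75 in Hivep3-/- stage 0-like cells; it lost the call without C57BL/6 replicate 1, without C57BL/6 replicate 2, without Hivep3-/- replicate 2 and at clustering resolution 1.2. Ndufb4 came next, at -0.41 and adjusted p = 0.0549 by edgeR. Cytosolic ribosomal protein genes gave 19 of 93 lower in this test, and glycolysis genes 3 of 19.

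The mt- sum overlapped between genotypes in 4 of 5 classes and over all cells (exact permutation p = 0.667 each), and in cycling-like cells it was 272 ± 40.3 in C57BL/6 and 214 ± 32.5 in Hivep3-/- (n = 2 each) with no overlap (exact permutation p = 0.333). The only mt- gene called between genotypes was mt-Nd4l, a complex I subunit, in cycling-like cells, at 27.1 and 27.9 per 10,000 against 18.7 and 18.6 (-0.71, SE 0.108, adjusted p = 0.0235). mt-Cytb, the subunit of complex III from this genome, was at 32.9 and 33.7 against 20.4 and 24.8 (-0.71, SE 0.1398, adjusted p = 0.0535). Over all cells mt-Co1, the catalytic subunit of complex IV, averaged 45.9 per 10,000, mt-Atp8 44.7, mt-Co3 37.5, mt-Co2 36.3, mt-Cytb 27.8 and mt-Nd4l 22.2. mt-Nd1 averaged 15.1, mt-Nd2 11.8, mt-Atp6 10.3, mt-Nd4 5.02, mt-Nd5 4.69, mt-Nd3 3.66 and mt-Nd6, from the other strand, 0.67. Counts at 5' ends of processed RNAs depend on how each end is captured, so these values order UMIs and not molecules.

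Members near Hivep3 or on the X chromosome were looked at on their own. Hivep3 lies at chr4:119733784-120138045, and within 10 Mb of it lie Uqcrh (chr4:116066965-116075071, 3.66 Mb away) and Ndufs5 (chr4:123712710-123718202, 3.57 Mb away), a stretch that a backcross can carry along from the strain of the targeted cells. Uqcrh had genotype differences of -0.26 to -0.12 over the 5 classes and all cells, and Ndufs5 of -0.34 to 0.10, none called. The X-linked members Ndufb11, Ndufa1 and Cox7b, of interest because 1 library alone held Xist, gave -0.25 to 0.00, -0.33 to 0.05 and -0.37 to -0.02. In C57BL/6 replicate 1, Ndufb11 stood at 4.27 per 10,000 in cycling-like cells against 4.23, 3.99 and 4.25 in the 3 other libraries.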

How the data were processed

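Single-cell 5' RNA libraries of 4 mice were analysed. The deposited values are raw UMI counts per gene and cell, made by the authors with Cell Ranger 3.1.0 on mm10; Seurat 3.1.4 is also named in the submitters' processing notes. Cells with at least 500 and fewer than 4100 genes, at least 1000 UMIs and under 6% mitochondrial UMIs were kept, as in the study. Scrublet called 14 of 19647 cells; its calls were not used and no doublets were removed. Cells were clustered with scanpy 1.11.5 (2000 variable genes, 30 components, 20 neighbours, resolution 0.8, mutual nearest neighbour correction), leaving out members, mt- genes, Hivep3, 26 genes of the study, 6 sex genes and receptor segments. A cluster was named from at least 4 markers among its top 50 genes; how markers were scored was decided with the data in view. Counts were summed per library and class and tested with edgeR 4.0.16 in R 4.3.3 (filterByExpr, TMM, quasi-likelihood test, Benjamini-Hochberg adjustment over all genes, threshold 0.05), with library as a block between stages and in the interaction. Sums were compared with exact two-sided permutation tests in scipy 1.17.1. On simulated counts the test recovered 51% of genes changed by a log2 of 1 and 92% at 2 in iNKT1-like cells (10821 genes), with 7 false calls. In cycling-like cells (10142 genes) it recovered 44% and 88%, with 15 false calls. Smaller changes, such as those of the members between genotypes, were not simulated. Alternatives were DESeq2 1.42.0, other scalings and filters, left-out libraries and other clusterings. Positions are from GENCODE vM21 for mm10.

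Named members were, by rule, the 3 highest of each complex, the 3 of largest change in each direction per stage comparison (mean of at least 20 CPM), the 3 of smallest p per genotype and interaction comparison, members on chromosome X or within 10 Mb of Hivep3, tissue isoforms and members with 0 UMIs. Others are said to be named after their values were seen or complete a count. The members and lists were chosen with earlier results of these data known.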

Additional observations from a re-analysis of the deposited data

Results flagged for a closer look

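The genotype difference itself differed between stages for 32 of 87 members in the interaction of cycling-like against iNKT1-like cells, all more negative in cycling-like cells. Of all genes, 5.42% were called lower and 9.74% in either direction. The count was 8 on unscaled totals, beside 2.71% of all genes called lower, and it was smaller whichever library was left out. Cox7a2 (-0.48), Uqcr11 (-0.60) and Atp5g1 (-0.64) had the smallest p among members. From the mitochondrial genome, mt-Co2 (-0.23), mt-Atp8 (-0.28), mt-Nd1 (-0.29), mt-Cytb (-0.32), mt-Nd4l (-0.40) and mt-Nd5 (-0.46) were called in the same test, so 6 of 13 moved the way the nuclear members did. These are log2 differences of differences from edgeR's quasi-likelihood test with adjusted p under 0.05. Against iNKT1-like cells, 2 of 87 members differed in stage 0-like cells, Ndufa4 (-0.42) and Uqcrq (-0.79). With 2.5% of all genes called in either direction, this count lies near the background.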

How the results depend on the processing

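Of the main values and counts under an alternative, 527 stayed within the replicate spread or 1.5 times the count while 56 moved. These were scored by size and not by direction. For iNKT17-like over iNKT2-like cells, 2 higher and 16 lower members became 11 higher and 8 lower on unscaled totals, which was scored as unchanged. Among single named members, none changed sign, 677 kept their side of the threshold, 20 gained and 23 lost the call. The cause of each change was not tested. Genotype differences of the member sum were -6.72% in stage 0-like and -13.8% in cycling-like cells with cytosolic ribosomal protein genes left out of the denominator, -12.5% in cycling-like and -3.14% over all cells in cells of 3000 to 8000 UMIs, and -4.54% over all cells as the mean of each cell's share. In cells of 3000 to 8000 UMIs the member sum rose by 18.6% from stage 0-like to cycling-like, differed by -32.5% from there to iNKT2-like and by -1.23% in the late cluster, the mt- sum differed by 22.5%, 14.8% and, to iNKT17-like, 20.9%, and members per mt- UMI in the late cluster by 2.36%. Cycling-like cells of this depth numbered only 206 and 21 in C57BL/6 and 18 and 19 in Hivep3-/-. Without ribosomal protein genes in the denominator, the step to iNKT2-like cells was -13.9% for members and 48.4% for mt- genes, iNKT17-like over iNKT2-like -4.84% and 8.59%, and iNKT1-like over iNKT2-like -21.5% for mt- genes. The step to iNKT2-like cells was -23.5% both without correction between libraries and without the mitochondrial limit, and -25.8% per cell. The late cluster differed by -0.218% at resolution 0.4 and -1.33% per cell, members per mt- UMI there by 3.70% at resolution 0.4, and those of cycling-like over stage 0-like cells by 3.80% at resolution 1.2.

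For counts of called members, stage 0-like cells gave 1 between genotypes under DESeq2, no filter, resolution 1.2, no correction and removal of the highest doublet scores, cycling-like cells 8 and all cells 3 with no filter. The share of all genes called in these fits is not given. These counts show only how calls between genotypes depend on the setting. Library totals without scaling gave 37 from stage 0-like to cycling-like, 20 in the late cluster and 8 in the cycling-like interaction, and DESeq2 gave 6 in the late cluster. The interaction count was 21 at resolution 0.4 and 17 in the second cycling-like cluster, and for stage 0-like cells 1 at resolution 1.2. Leaving out each library gave 0 to 1 calls between genotypes in stage 0-like and 0 to 5 in cycling-like cells, 30 to 49 for iNKT1-like over iNKT2-like, 7 to 9 for the late cluster (7 without Hivep3-/- replicate 1), 2 to 18 for the cycling-like and 1 to 2 for the stage 0-like interaction. Interaction alternatives, unscaled totals, single clusters and equal class weights were chosen after seeing the data.

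The deviations of C57BL/6 replicate 1 and Hivep3-/- replicate 1 from their group means correlated at 0.0102 over 3822 genes. This value cannot show whether same-numbered mice shared a batch. In every class the mt- sum was lower in replicate 1 than in replicate 2 of both genotypes. In stage 0-like cells it was 208 against 274 per 10,000 in C57BL/6 and 174 against 233 in Hivep3-/-. A batch by replicate number was not tested. With the replicate block, 1 member was called between genotypes in stage 0-like and 3 in cycling-like cells. Between stages, where library was the block, no replicate block gave 10 calls for iNKT17-like over iNKT2-like, 28 for iNKT1-like over iNKT2-like and 0 for the late cluster. The share of all genes called in these fits is not given. Any count in this section without that share beside it shows only how calls depend on the setting. With 2 libraries per genotype no sum could pass a threshold of 0.05 in the exact permutation test, and the smallest class sum held 683799 UMIs.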
